A study of Mus musculus with 21 samples.

Results

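Making a ribosome takes many proteins that are not part of the finished particle, and the transcripts of a selected group of these ribosome biogenesis factors are described here in mouse zygotes, 2-cell embryos, embryos reconstructed by nuclear transfer and embryonic stem (ES) cells. The group held 54 genes, chosen by name and matched to probes by the array platform's gene symbols, in 5 classes by role. There were 4 nucleolar organisers, 3 proteins of the box C/D particle, 4 of the box H/ACA particle, 26 factors of small subunit processing and 17 of large subunit processing. Of the 54 genes, 48 had a probe and 38 passed the filter on dim probes (a detection p below 0.01 on at least 2 of the 21 arrays), out of 8527 genes tested in all.

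M phase transfer embryos (4 arrays) had received a nucleus in M phase and were taken 22 to 24 h later, at an age of 48 to 50 h after hCG. Interphase transfer embryos (2 arrays) came from enucleation and transfer at interphase and had the same age. Genomeless embryos (2 arrays) were taken 22 to 24 h after enucleation, with no genome put back, also at 48 to 50 h. Drug controls (3 arrays) were embryos with their own genome that had been exposed to nocodazole, a microtubule poison, at mitosis and were taken at 48 to 50 h, and 2-cell embryos (2 arrays) had that age without the drug. Mitotic zygotes (3 arrays) had been arrested with nocodazole at 32 to 34 h, interphase zygotes (3 arrays) were taken at 24 to 28 h, and cultured ES cells (2 arrays) completed the set. All embryos were grown in KSOM medium and each embryo array came from a pool of 20. The labels do not name the strain, the donor cell of the transfers or the ES cell line.

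The array pairs mitotic zygote A and C and drug control B and C differed by an SD of log2 signal under 0.2, were treated as repeat hybridisations and were averaged, which left 19 samples. Each group thus held 2 to 4 samples, and the median SD of log2 signal over genes was 0.40 in M phase transfer, 0.51 in interphase transfer and 0.50 in genomeless embryos, against 0.10 to 0.29 in the other groups. Genomeless B and interphase transfer B were dim, with a mean signal of 11.25 and 12.79 against 73.0 to 687.57 on the other arrays. The label of ES cell A names blood as its source, but all 8 ES cell markers were detected on both ES arrays. Of 6 blood markers, 2 were detected on each of them. The 6 markers of the 2-cell stage were all detected in M phase transfer embryos, drug controls and 2-cell embryos, at most 1 of them in interphase transfer embryos, and none in genomeless embryos.

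Ribosomes begin in the nucleolus, where RNA polymerase I makes a long precursor RNA that carries the rRNAs of both subunits. Small guide RNAs in box C/D particles direct methylation and those in box H/ACA particles direct pseudouridine formation, while a large complex built around the U3 guide RNA folds and cuts the small subunit part. Other factors assemble and export the large subunit. In the mouse zygote the nucleoli are compact bodies that do little processing, and rRNA synthesis resumes when the embryo's own genome becomes active around the 2-cell stage.

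Of the 16 members that could not be tested, 6 had no probe. These were Dkc1, the pseudouridine synthase of the box H/ACA particle, Gnl2, Nol8, Nol10, Wdr43 and Wdr75. For 9 others, the probe was detected on none of the 21 arrays. These were Npm1, an abundant nucleolar chaperone, Wdr12, the partner of Pes1 and Bop1, the small subunit factors Mphosph10, Utp3, Utp18, Wdr36, Ddx10 and Bysl, and the large subunit factor Nop16. Rrs1 was detected on 1 array. A probe that was never detected, in ES cells included, gives no level for its transcript. The tested members were 3 of 4 nucleolar organisers, 3 of 3 box C/D proteins, 3 of 4 box H/ACA proteins, 17 of 26 small subunit and 12 of 17 large subunit factors.

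Fewer members were detected in genomeless and interphase transfer embryos than in the other groups. Of the 38 tested members, 31 to 36 were detected per array in M phase transfer embryos, 12 and 18 in interphase transfer embryos, 1 and 17 in genomeless embryos, 36 on each array of drug controls and 2-cell embryos, 26 to 31 in zygotes, and 37 and 38 in ES cells. The share of members detected ranged from 81.6% to 94.7% in M phase transfer embryos, where 51.4% to 68.3% of all tested genes were detected. In interphase transfer embryos it was 31.6% and 47.4%, beside 30.3% and 52.9% of all genes. Genomeless A detected 44.7% of the members and 44.5% of all genes, and genomeless B 2.6% and 22.2%. On the 2-cell arrays 94.7% of the members were detected, beside 65.3% of all genes on each. Across the zygote arrays 7 members were detected on none (Ncl, Ddx21, Nop2, Pes1, Rrp1, Tsr1 and Tsr2) and 25 on all. Across the 4 genomeless and interphase transfer arrays 14 members were detected on none and no member on all.

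**Figure D1:**
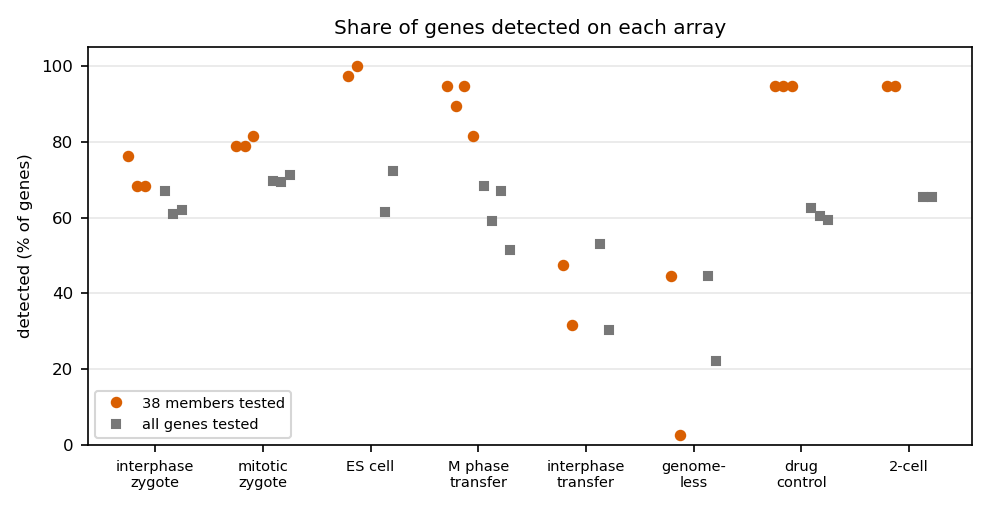
Share of genes with a detection p below 0.01 on each array, in percent, for the 38 tested members (circles) and all 8527 tested genes (squares). The 2-cell and drug control arrays each detected 94.7% of the members, and genomeless B detected 2.6%.

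The first comparison asked what changes when the embryo passes from mitosis of the zygote to the 2-cell stage. The mitotic zygotes had been arrested with nocodazole and the 2-cell embryos had not, so the groups also differ in the drug. Of the 38 members tested, 20 were higher in 2-cell embryos than in mitotic zygotes and none was lower, where 13.9% of all tested genes were called higher and 13.8% lower. Calls are from limma with Benjamini-Hochberg adjustment over all genes, at an adjusted p below 0.05. A fall could not be seen in the 7 members that no zygote array detected, because they passed the filter through other groups. With no filter on dim probes, 14 of 48 members were called higher and none lower, beside 2196 of 15967 genes called in either direction. The median log2 difference of the 38 members was 1.64, against -0.02 over all genes. It was 1.60 with every undetected value raised to the lowest detected signal on its array. All 17 small subunit factors had a positive difference, as did 8 of 12 large subunit factors, beside 4171 of all 8527 genes. One of the 17, Tsr2, differed by 0.12 and was detected on no array of either group. The classes were not tested against each other. In a bulk sample, fewer cells of a type and less RNA per cell cannot be told apart, and signals here are relative to the other genes on the same array.

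Among the nucleolar organisers all 3 tested members rose. Nucleolin (Ncl), which binds the precursor RNA, had log2 signals of 10.32 and 10.47 in 2-cell embryos, against 6.19 and 6.17 in mitotic zygotes. No zygote array detected it, so it was at least 15.2-fold higher in 2-cell embryos (adjusted p = 7.87e-06 from limma). The RNA helicase Ddx21 had 9.10 and 8.68 in 2-cell embryos, against 5.82 and 5.85 in mitotic zygotes, at least 5.34-fold higher. Nolc1, a chaperone that carries guide RNA particles, was detected in zygotes and had 8.49 and 9.13 in 2-cell embryos, against 6.72 and 6.85 in mitotic zygotes (log2 difference 2.03, SE 0.64, adjusted p = 0.0298 from limma). Its 3 interphase zygote samples were at 8.77, 7.73 and 7.47, of which the highest lay within the range of the 2-cell embryos.

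In the box C/D particle the methyltransferase fibrillarin (Fbl) rose, with 10.83 and 10.29 in 2-cell embryos against 6.86 and 6.68 in mitotic zygotes (log2 difference 3.79, SE 0.68, adjusted p = 0.000974 from limma). Its scaffold partners Nop56 and Nop58 were detected on every zygote array. Nop58 had 10.91 and 11.09 in 2-cell embryos, against 8.35 and 9.29 in mitotic zygotes (2.18, SE 0.80, adjusted p = 0.0561). Nop56 had 8.51 and 8.63 in 2-cell embryos, against 7.91 and 8.44 in mitotic zygotes (0.40, SE 0.76, adjusted p = 0.78). The 3 box H/ACA proteins Gar1, Nhp2 and Nop10 had differences of 2.26, 2.07 and 1.40, none past the threshold. Nop10, a small protein of the particle, had 8.92 and 9.25 in 2-cell embryos, against 7.73 and 7.64 in mitotic zygotes.

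Of the small subunit factors, 10 of 17 rose and the median log2 difference was 1.44. The largest difference was that of Rrp12, which helps export precursor particles, with 11.10 and 11.34 in 2-cell embryos against 6.74 and 6.93 in mitotic zygotes (4.38, SE 0.40, adjusted p = 5.43e-06 from limma). Rrp9, a protein of the U3 particle, differed by 3.36 (SE 0.51), the methyltransferase Emg1 by 3.30 (SE 0.59) and Nop14 by 3.29 (SE 0.39). Heatr1, which joins RNA polymerase I transcription to early processing, had 12.24 and 11.89 in 2-cell embryos, against 9.53 and 9.57 in mitotic zygotes. Nob1, the endonuclease that trims the small subunit rRNA, had 8.57 and 8.77 in 2-cell embryos, against 6.73 and 7.14 in mitotic zygotes (1.74, SE 0.55, adjusted p = 0.0298). Imp4, which binds the U3 RNA in yeast, was high in both stages. Imp4 had 12.26 and 12.50 in 2-cell embryos and 12.19 and 12.39 in mitotic zygotes, a difference of 0.09 (SE 0.78), while Imp3, from the same complex in yeast, differed by 1.14 (SE 0.67, adjusted p = 0.232).

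Of the large subunit factors, 6 of 12 rose and the median difference was 1.55. Nip7 (3.64, SE 0.81), Bop1 (3.46, SE 0.63) and Ebna1bp2 (2.93, SE 0.54) led. Bop1, a scaffold of the PeBoW complex, had 11.23 and 10.91 in 2-cell embryos, against 7.99 and 7.23 in mitotic zygotes. Its partner Pes1 had 7.02 and 8.34 in 2-cell embryos and 5.92 and 5.91 in mitotic zygotes, where no array detected it, with an adjusted p of 0.0634. Nop2, an RNA methyltransferase, was not detected in zygotes and was at least 5.33-fold higher in 2-cell embryos, at 8.57 and 9.20 against 5.98 and 5.96. A second Nop2 probe, detected on 1 array of 2-cell embryos, differed by 0.62. Nucleostemin (Gnl3), a GTPase, had 12.70 and 12.47 in 2-cell embryos, against 11.13 and 11.11 in mitotic zygotes (1.46, SE 0.51, adjusted p = 0.047). The other pattern was a high level in zygotes with no rise. Brix1 had 10.67 on both 2-cell arrays, against 12.16 and 11.99 in mitotic zygotes (-1.40, SE 1.21, adjusted p = 0.447). Ddx18 differed by -0.29 and Rrp1b by -0.09, and the SE of these was 0.78 and 0.73.

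Leaving out any of the 4 samples in this comparison (mitotic zygote A and C, mitotic zygote B, 2-cell A or 2-cell B) left 11 to 12 members called. The calls of Bop1, Ddx21, Ebna1bp2, Emg1, Fbl, Ncl, Nip7, Nop14, Nop2, Rrp12 and Rrp9 were kept under all 18 alternative settings. On chip 4, which held 2 arrays of each group, the median of the members was 1.66.

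**Figure D2:**
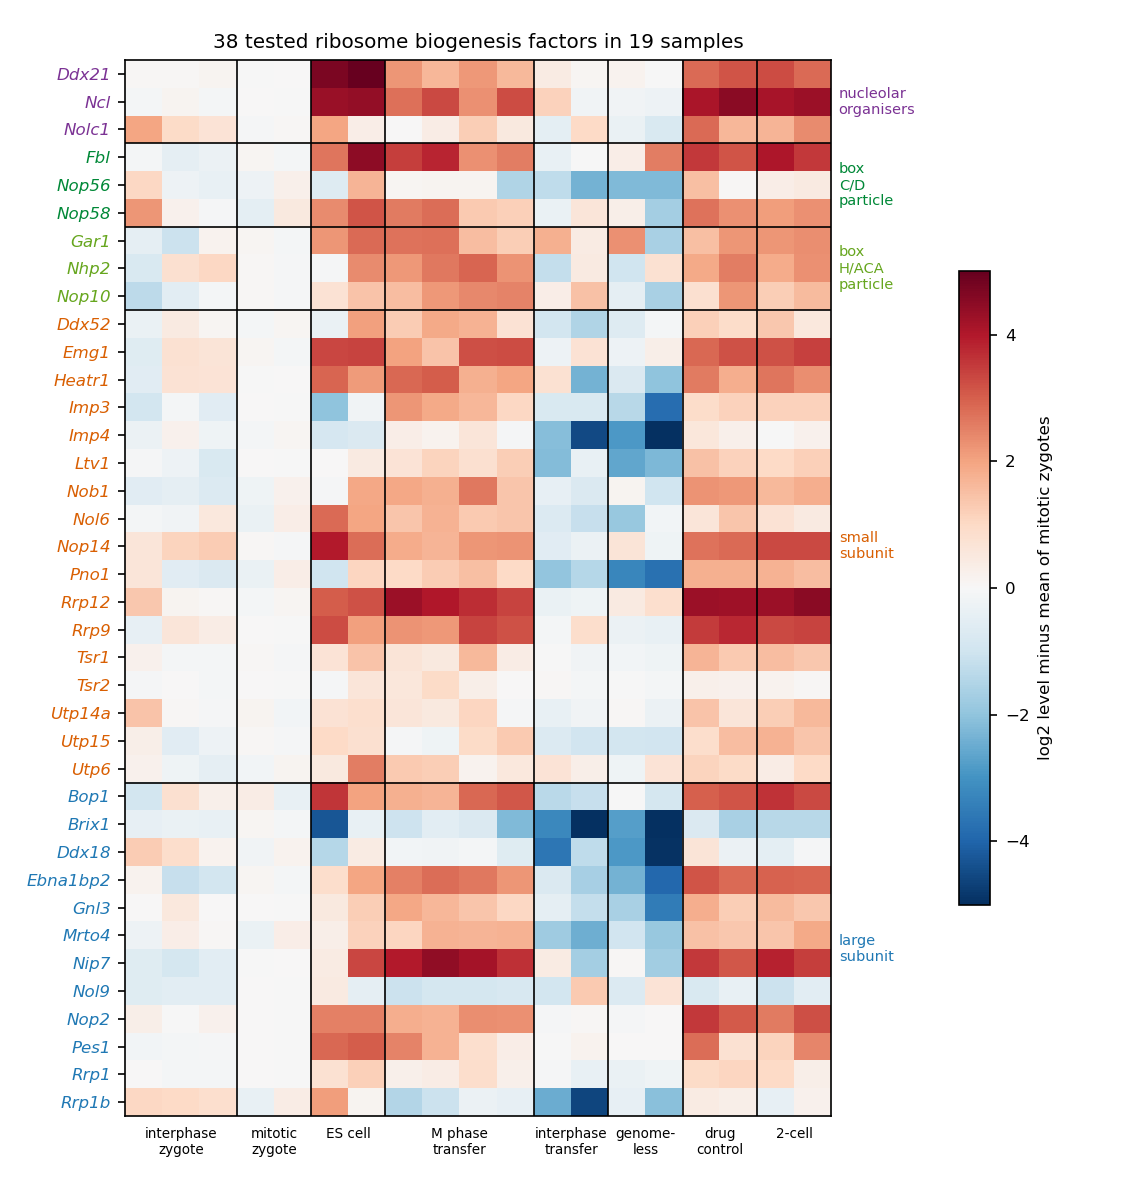
Log2 signal of the 38 tested members (rows, by class) in 19 samples (columns, by group), each minus the mean of the mitotic zygotes for that gene, with the colour scale ending at 5 in both directions. Rrp12, Ncl and Nip7 are high in 2-cell embryos, drug controls and M phase transfer embryos, and Brix1, Imp4 and Ddx18 are low in genomeless and interphase transfer embryos.

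Mitotic and interphase zygotes differed in stage, age and nocodazole together, and drug controls and 2-cell embryos differed in nocodazole. In mitotic against interphase zygotes no member was called (0% of all genes were), the median difference was -0.03, and 1 member, Nop14, had an unadjusted p below 0.05. In drug controls against 2-cell embryos no member was called (0% of all genes), the median difference was 0.11 and no member had an unadjusted p below 0.05. Of all genes, 403 and 96 did so in these 2 comparisons by limma.

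The promoters of members with contrasting patterns are shown from RefSeq (GRCm38.p6), so that their motifs can be compared. A promoter was given for 45 of the 54 members. Of Nolc1, Ncl and Nop2, the 3 members with a promoter that lay furthest below the drug controls after M phase transfer, and of Imp4, which was high in zygotes already, the 250 bases before the start are printed from 5′ to 3′ on the gene's strand. Capitals mark CACGTG (the E-box bound by Myc proteins), CCGGAAG or CTTCCGG (the core of ETS sites) and GGGCGG or CCGCCC (the GC box). Nolc1 lies at chr19:46075597-46075846 (+), Ncl at chr1:86359456-86359705 (-), Nop2 at chr6:125131633-125131882 (+) and Imp4 at chr1:34439579-34439828 (+).
Nolc1: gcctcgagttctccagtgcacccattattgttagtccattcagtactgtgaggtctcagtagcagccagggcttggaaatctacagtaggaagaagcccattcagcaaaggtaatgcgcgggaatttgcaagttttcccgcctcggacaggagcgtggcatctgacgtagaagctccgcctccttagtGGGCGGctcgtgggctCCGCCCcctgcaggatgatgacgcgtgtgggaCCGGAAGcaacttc
Ncl: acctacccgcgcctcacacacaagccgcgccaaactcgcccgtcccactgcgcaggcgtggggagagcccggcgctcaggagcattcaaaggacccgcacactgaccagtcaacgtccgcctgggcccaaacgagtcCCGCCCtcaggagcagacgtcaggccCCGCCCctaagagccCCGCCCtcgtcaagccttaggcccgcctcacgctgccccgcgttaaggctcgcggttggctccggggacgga
Nop2: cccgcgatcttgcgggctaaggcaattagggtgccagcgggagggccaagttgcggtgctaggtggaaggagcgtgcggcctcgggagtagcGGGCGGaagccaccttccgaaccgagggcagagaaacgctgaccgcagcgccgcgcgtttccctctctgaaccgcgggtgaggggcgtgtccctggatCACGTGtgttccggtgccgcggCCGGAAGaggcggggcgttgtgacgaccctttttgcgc
Imp4: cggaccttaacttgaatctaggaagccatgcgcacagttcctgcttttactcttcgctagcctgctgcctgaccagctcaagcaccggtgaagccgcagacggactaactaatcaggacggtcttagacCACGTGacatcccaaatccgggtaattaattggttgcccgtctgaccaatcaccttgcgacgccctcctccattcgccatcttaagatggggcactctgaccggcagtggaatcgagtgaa

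Nolc1 carried 2 GC boxes and an ETS core, at position -14 counted from the start, and Ncl carried 3 GC boxes and neither other motif. Nop2 held all 3 motifs, with its E-box at position -60. In the printed bases Imp4 held an E-box at position -121 and neither other motif, and the longer window searched next also held a GC box. Searched on both strands of the window from 250 bases before to 50 after the start, CACGTG was found in 20.0% of the 45 member promoters, against 10.0% of 6956 promoters of tested genes. CCGGAAG was found in 35.6% of the member promoters, against 18.2%, and GGGCGG in 64.4%, against 63.2%. The E-box promoters were those of Imp4, Ltv1, Nop2, Pes1, Pno1, Tsr1, Tsr2, Utp18 and Wdr43. These are counts of letters with no test, and a match does not show that a factor binds.

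Most of the members were lower in genomeless embryos than in drug controls, which had the same age and their own genome. Against drug controls, 30 of 38 were lower in genomeless embryos and none was higher, where 19.3% of all genes were called lower and 11.4% higher. With median scaling the share of higher genes among those called was 5.6%, in place of 37.2%. The median difference was -2.86, against -0.03 over all genes. It was -1.58 with every undetected value raised to the lowest detected signal on its array. Ebna1bp2 had 7.49 and 5.92 in genomeless embryos, against 12.97 and 12.66 in drug controls (-6.11, SE 0.54, adjusted p = 2.8e-06 from limma). Of the 8 members without a call, Nol9 had a positive difference (0.56, SE 0.57), but no genomeless array detected it. Gar1 lay above both drug controls in genomeless A, at 12.04. Pno1, the partner of Nob1, differed by -5.29 (SE 0.57) and Imp4 by -4.81 (SE 0.78). Ebna1bp2, Pno1 and Imp4 were each detected on only 1 genomeless array. Ncl had 6.02 and 5.93 in genomeless embryos, against 10.27 and 10.69 in drug controls, at least 5.52-fold lower. Rrp12 had 7.27 and 7.67 in genomeless embryos, against 11.13 and 11.07 in drug controls, at least 8.51-fold lower.

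Against the mitotic zygotes, which precede them, genomeless embryos had 9 of 38 members lower and none higher, where 13.5% of all genes were lower and 6.85% higher. With median scaling 5.3% of the called genes were higher and with the deposited processed values 14.9%, in place of 33.6%. These groups share no chip. With chip as a fixed block none of the 38 was called, and with that block on 21 separate arrays 4 were lower. The 9 were Brix1, Imp4, Ddx18, Pno1, Ebna1bp2, Imp3, Gnl3, Ltv1 and Mrto4. Brix1 had 9.32 and 5.72 in genomeless embryos, against 12.16 and 11.99 in mitotic zygotes (-4.55, SE 1.21, adjusted p = 0.017 from limma). Imp4 had 9.43 and 6.37 in genomeless embryos, against 12.19 and 12.39 in mitotic zygotes (-4.39, SE 0.78, adjusted p = 0.00182). Ddx18 differed by -3.92 (SE 0.78), Pno1 by -3.50 (SE 0.57), Imp3 by -2.60 (SE 0.67) and Gnl3 by -2.57 (SE 0.51). Ltv1, an assembly factor of the small subunit, was at least 1.62-fold lower. In 8 of the 9, only 1 genomeless array detected the gene. Brix1, Imp4 and Ddx18 were also among the members that were high in zygotes and not called at the 2-cell stage. The median over the 38 was -0.44, and 0.54 with every undetected value raised to the lowest detected signal on its array. The sign of this median thus depends on how undetected values are set, and genomeless B detected 1 of the 38 members. Of the 14 members detected on no genomeless or interphase transfer array, Rrp12, Nop56, Nolc1, Nhp2 and Ddx52 were detected on every zygote array. A missing detection is not by itself a fall. Mean log2 signals in genomeless embryos and mitotic zygotes were 7.47 and 6.84 for Rrp12, and 5.96 and 8.17 for Nop56. They were 6.23 and 6.78 for Nolc1, 7.34 and 7.46 for Nhp2, and 7.13 and 7.49 for Ddx52.

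Interphase transfer embryos, which had received a genome, also had low levels. Against drug controls, 30 of 38 members were lower and none was higher, where 17.1% of all genes were lower and 9.51% higher. The median difference was -2.62, and -2.14 with every undetected value raised to the lowest detected signal on its array. With median scaling 5.6% of the called genes were higher, in place of 35.8%. Rrp12 had 6.49 and 6.63 in interphase transfer embryos, against 11.13 and 11.07 in drug controls, at least 12.3-fold lower. Bop1 had 6.27 and 6.46 in interphase transfer embryos, against 10.61 and 10.77 in drug controls, at least 9.24-fold lower. Nip7 differed by -3.97 (SE 0.81), Rrp1b by -3.87 (SE 0.73) and Ncl by -3.82 (SE 0.41). Each of them was detected on only 1 interphase transfer array. The difference of the box H/ACA proteins had a median of -0.76, with Gar1 at 11.54 and 10.16 in interphase transfer embryos, against 11.26 and 11.96 in drug controls. These drug controls are the same samples as in the genomeless comparison. In interphase transfer against genomeless embryos no member was called (0.575% of all genes were higher and 0.34% lower), while 6 were higher and 3 lower at an unadjusted p below 0.05 from limma, or 23.7% of the members against 13.3% of all genes. Among them Ebna1bp2 had 9.14 and 8.20 in interphase transfer embryos, against 7.49 and 5.92 in genomeless embryos, and Gnl3 had 10.67 and 9.93, against 9.49 and 7.62. Leaving out genomeless A left only the dim genomeless B, which detected 1 of the 38 members and was assumed to vary like the other groups. The fit then called 6 members higher and 1 lower among 936 genes, against probes mostly not above background. Leaving out interphase transfer A likewise left the dim interphase transfer B, and 2 members were called higher and 1 lower among 753 genes.

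With weights for array quality 19 members were called lower in each of the 2 comparisons with drug controls, in place of 30. With chip as a fixed block on the averaged samples none was called in either, and on the 21 separate arrays 28 were called in genomeless and 26 in interphase transfer embryos. Oocyte markers had a summed linear signal of 31750 to 32338 in interphase transfer embryos and 32663 to 34250 in genomeless embryos, between those of drug controls (9061 to 10293) and mitotic zygotes (56073 to 58447). Their part in the result was not tested.

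**Figure D3:**
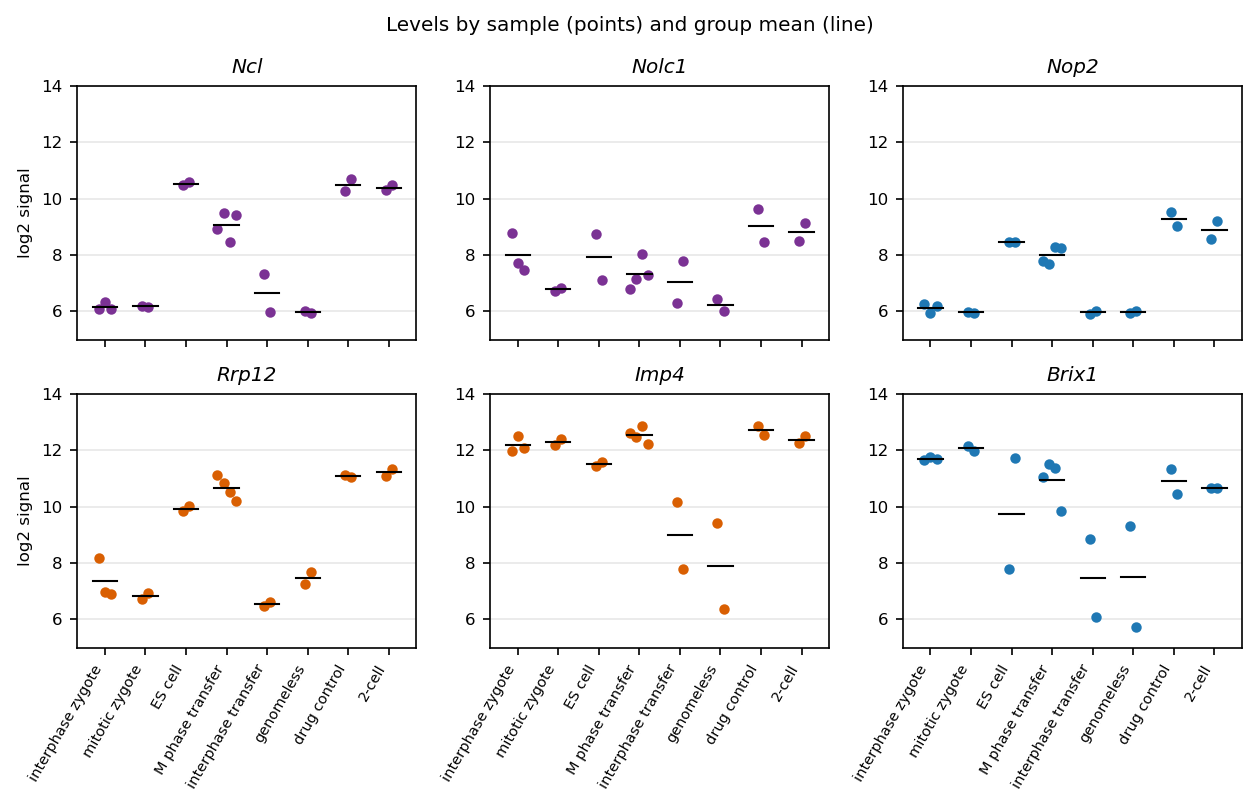
Log2 signal of Ncl, Nolc1, Nop2, Rrp12, Imp4 and Brix1 in each sample (points), with the group mean (line), for the 8 groups. Ncl lies at 8.45 to 9.48 in M phase transfer embryos and at 10.27 and 10.69 in drug controls, and Imp4 lies at 9.43 and 6.37 in genomeless embryos and at 12.19 and 12.39 in mitotic zygotes.

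M phase transfer embryos had most of the members at a higher level than interphase transfer embryos. Of 38, 26 were higher and none was lower, where 17.8% of all genes were higher and 11.4% lower. The median difference was 2.34, and 1.76 with every undetected value raised to the lowest detected signal on its array. With median scaling 74.6% of the called genes were higher, in place of 61%. Nip7 had 11.70, 12.17, 11.89 and 11.39 in M phase transfer embryos, against 8.13 and 6.02 in interphase transfer embryos (4.71, SE 0.70, adjusted p = 0.000191 from limma). Rrp12 had 11.12, 10.85, 10.51 and 10.21 in M phase transfer embryos, against 6.49 and 6.63 in interphase transfer embryos, at least 9.14-fold higher. Heatr1 had 12.43, 12.57, 11.33 and 11.54 in M phase transfer embryos, against 10.31 and 7.20 in interphase transfer embryos (3.21, SE 0.70, adjusted p = 0.00328). Ebna1bp2 differed by 3.72 (SE 0.47) and Imp4 by 3.57 (SE 0.67). Nip7, Heatr1 and Imp4 were each detected on only 1 interphase transfer array. Mrto4 was at least 6.49-fold higher, Bop1 5.59-fold and Fbl 4.94-fold. By class, 13 of 17 small subunit, 9 of 12 large subunit, 2 of 3 nucleolar, 1 of 3 box C/D and 1 of 3 box H/ACA members were called. Nolc1 was the nucleolar member without a call, at 6.79, 7.15, 8.03 and 7.28 in M phase transfer embryos, against 6.29 and 7.79 in interphase transfer embryos, where no array detected it, so no fold is given. The time since transfer is not given for interphase transfer embryos.

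Against drug controls, the question was how far M phase transfer embryos fell short of embryos with their own genome. No member was called in either direction, where 0.129% of all genes were higher and 0.129% lower. The differences were negative in 27 of 38 members, with a median of -0.42 against 0.01 over all genes. In 11 members all M phase transfer samples lay below both drug control samples (28.9% of the 38, against 9.63% of all genes), and in 1 member, Nip7, all lay above (8.6% of all genes). At an unadjusted p below 0.05 there were 7 members lower and none higher, against 4.69% and 3.2% of all genes. The smallest adjusted p was 0.07, for Nop2. A further requirement of a log2 difference of at least 1 left 5 of the 11 lower members (2.63% of all genes), and none was higher by as much (2.4%). The 5 were Nolc1, Ncl, Nop2, Rrp1b and Ddx21.

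The 6 markers of the 2-cell stage had a summed linear signal of 6227 to 11918 in M phase transfer embryos, against 15571 to 16356 in drug controls and 15014 to 15188 in 2-cell embryos, and their part in these differences was not tested.

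All 3 nucleolar organisers were among these 5. Nolc1 had 6.79, 7.15, 8.03 and 7.28 in M phase transfer embryos, against 9.63 and 8.45 in drug controls (-1.73, SE 0.56, adjusted p = 0.34 from limma). Ncl had 8.94, 9.48, 8.45 and 9.44 in M phase transfer embryos, against 10.27 and 10.69 in drug controls (-1.40, SE 0.35, adjusted p = 0.168). A second Ncl probe differed by -1.66. Ddx21 had 8.04, 7.51, 8.02 and 7.45 in M phase transfer embryos, against 8.66 and 8.97 in drug controls (-1.06, SE 0.30, adjusted p = 0.229). Ncl and Ddx21 thus lay between the zygotes, where no array detected them, and the drug controls in all 4 samples. Ncl, Ddx21 and Nolc1 also lay below both 2-cell samples in every M phase transfer sample, with differences of -1.32, -1.13 and -1.50 and no call. With chip as a fixed block Nolc1 turned to 0.60 against drug controls and 1.67 against 2-cell embryos, and with that block on 21 separate arrays it was -0.86 and -0.90.

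The other members apart by at least 1 were factors of the large subunit. Nop2 had 7.79, 7.70, 8.29 and 8.25 in M phase transfer embryos, against 9.52 and 9.04 in drug controls (-1.27, SE 0.26). A second Nop2 probe, detected on 3 drug control and 2 M phase transfer arrays, differed by only -0.37. Rrp1b, a nucleolar protein related to Rrp1, had 9.12, 9.52, 10.30 and 10.20 in M phase transfer embryos, against 11 and 10.87 in drug controls (-1.15, SE 0.63, adjusted p = 0.77 from limma), and a second probe differed by -1.17. With chip as a fixed block Rrp1b turned to 0.23 and Nop2 was at -0.44, and on 21 separate arrays with that block they were at -1.34 and -0.85. Rrp1 itself differed by -0.57, with detection on 1 of 4 M phase transfer arrays. Pes1 had 8.38, 7.67, 6.76 and 6.26 in M phase transfer embryos, against 8.69 and 6.66 in drug controls, so the groups overlapped. Bop1 had 9.37, 9.31, 10.47 and 10.70 in M phase transfer embryos, against 10.61 and 10.77 in drug controls, and Gnl3 had 13.06, 12.78, 12.52 and 12.14, against 12.95 and 12.34.

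Small and large subunit factors had similar median differences, which were not tested against each other. The median difference was -0.36 over 17 small subunit and -0.42 over 12 large subunit factors, with 12 and 9 negative. Rrp9 (-0.90, SE 0.44), Nop14 (-0.77, SE 0.34) and Pno1 (-0.59, SE 0.49) were the 3 of 17 small subunit factors below both drug controls in every sample. Of the 12 large subunit factors, 5 lay below in this way (Ebna1bp2, Nol9, Nop2, Rrp1 and Rrp1b), beside 9.63% of all genes. No M phase transfer array detected Nol9. Heatr1 differed by 0.23, with 12.13 and 11.35 in drug controls. Rrp12 differed by -0.43, with 11.13 and 11.07 in drug controls. Nob1 had 8.85, 8.73, 9.58 and 8.34 in M phase transfer embryos, against 9.17 and 9.12 in drug controls (-0.27). In genomeless against drug control embryos the medians were -2.65 for small and -3.35 for large subunit factors, and in interphase transfer against drug control embryos -2.58 and -3.37. With every undetected value raised to the lowest detected signal on its array, these became -1.48 and -1.85 in genomeless embryos. In interphase transfer embryos they became -1.79 and -2.50.

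Among the guide RNA particles the 3 box C/D proteins had negative differences and the 3 box H/ACA proteins positive ones, none of them called and with samples that overlapped in each. The contrast between the particles was not tested, and Gar1 differed by -0.77 within chip 6 and by -0.20 against 2-cell embryos. Nop56 had 8.28, 8.31, 8.31 and 6.68 in M phase transfer embryos, against 9.68 and 8.25 in drug controls (-1.07, SE 0.66). Nop58 had 11.42, 11.61, 10.12 and 10.01, against 11.53 and 11.10 (-0.52), and Fbl had 10.21, 10.56, 9.07 and 9.31, against 10.29 and 9.93 (-0.32). Nop10 had 9.21, 9.87, 10.10 and 10.18 in M phase transfer embryos, against 8.50 and 9.91 in drug controls (0.64, SE 0.49).

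**Figure D4:**
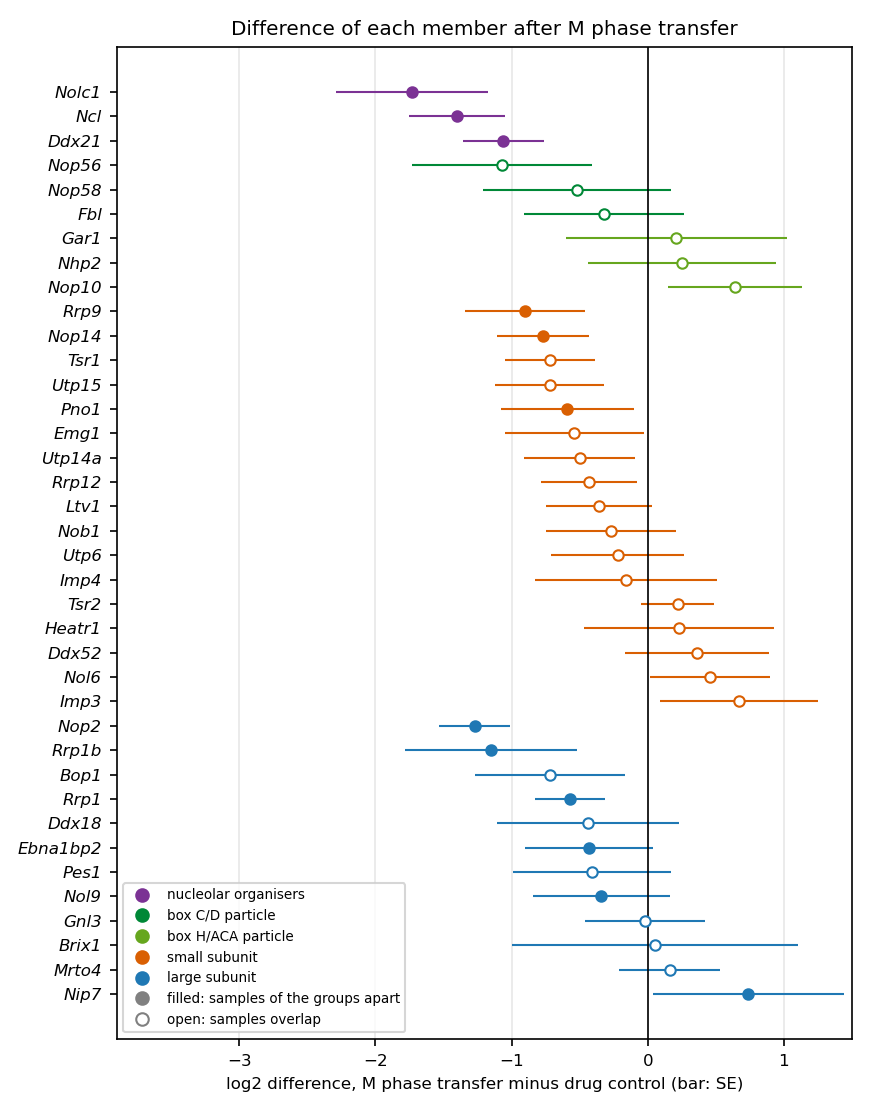
Log2 difference of each tested member, M phase transfer minus drug control, with its standard error from limma, by class. Filled points mark members whose samples of the 2 groups do not overlap. The nucleolar organisers lie at -1.73, -1.40 and -1.06, while small and large subunit factors spread from -1.27 to 0.74.

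The M phase transfer samples were split over chips, with A and B on chip 5 and C and D on chip 6. By at least 1 and without overlap, 5 members were higher on chip 5 (Fbl, Gar1, Heatr1, Nop58 and Pes1; 9.56% of all genes) and 4 were lower (Bop1, Emg1, Rrp9 and Utp15; 7.66%). Within chip 6, which held drug control C, the median difference was -1.30 for the nucleolar organisers, -0.77 for box C/D, 0.05 for box H/ACA, -0.13 for small subunit and -0.15 for large subunit members, and 0.01 over all genes. In the same chip Ncl differed by -1.85, Ddx21 by -1.30, Nolc1 by -0.82 and Nop2 by -0.74. With chip as a fixed block no member was called, and weights for array quality gave 11 members lower against drug controls. Treating the 21 arrays as separate gave 3 lower (Ncl, Ddx21 and Nop2), and leaving out M phase transfer C gave 1 (Nop2).

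Against 2-cell embryos no member was called either (0.106% of all genes were higher and 0.0821% lower). The median difference was -0.21, 11 members lay below both 2-cell samples in every M phase transfer sample (10.7% of all genes), and 7 were lower and none higher at an unadjusted p below 0.05 (5.18% and 3.65% of all genes). Nop14 had 8.62, 8.45, 8.98 and 9.03 in M phase transfer embryos, against 10.07 and 10.06 in 2-cell embryos (-1.30, SE 0.34, adjusted p = 0.167 from limma). Weights for array quality gave 11 lower and 2 higher.

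**Figure D5:**
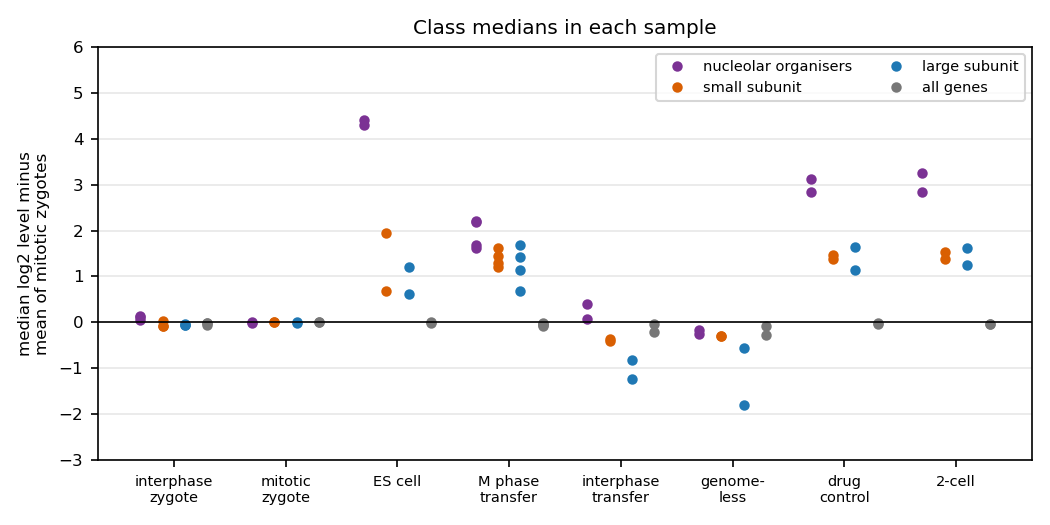
Median log2 level of the nucleolar organisers, small subunit and large subunit members and all genes in each sample, relative to the mean of the mitotic zygotes for each gene, by group. In M phase transfer embryos the nucleolar organisers lie at 1.61 to 2.20, below 2.84 and 3.13 in drug controls, while the small subunit factors lie at 1.21 to 1.62 beside 1.39 and 1.46.

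In ES cells, a fast-dividing cell type, the share of members called against 2-cell embryos was not above that of all genes. Of 38, 2 were higher and 2 lower than in 2-cell embryos (5.26% each), where 8.4% of all genes were higher and 6.98% lower. The median difference was -0.35. Ddx21 had 10.53 and 11.57 in ES cells, against 9.10 and 8.68 in 2-cell embryos (2.16, SE 0.34, adjusted p = 0.000773 from limma), and its call was kept under all 16 alternatives. Nol6, which joins the early small subunit complex, had 10.88 and 10.03 in ES cells, against 8.77 and 8.50 in 2-cell embryos (1.82, SE 0.50). Imp3 had 8.76 and 10.58 in ES cells, against 11.92 and 11.91 in 2-cell embryos (-2.25, SE 0.67), and Rrp12 had 9.85 and 10.01, against 11.10 and 11.34 (-1.29, SE 0.40). The ES samples differed from each other, with Brix1 at 7.79 and 11.72 and Nip7 at 8.15 and 11.07, and leaving out ES cell A gave 2 calls, ES cell B 7, and either 2-cell sample 1. Nop10 had 8.42 and 9.10, Nob1 6.86 and 8.88, Gnl3 11.62 and 12.35 and Fbl 9.45 and 11.26 in ES cells. All ES arrays lay on chip 2 and all 2-cell arrays on chip 4, so chip and group cannot be told apart.

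Other genes of the pathway were counted from lists drawn up by function. In 2-cell embryos against mitotic zygotes, 10 of 14 tested genes of RNA polymerase I transcription rose and none fell, with a median of 2.44, where 13.9% of all genes were higher and 13.8% lower. Of 21 other small subunit factors 7 rose and 1 fell (median 1.14), of 26 other large subunit factors 11 rose and 1 fell (median 0.97), and of 10 subunits of the RNA exosome, which trims the precursor's ends, 2 rose and 1 fell (median 0.61). Mycl, the 1 tested gene of the Myc family, differed by 0.28 without a call. In M phase transfer against drug control embryos none of these lists held a called gene (0.129% of all genes were higher and 0.129% lower), and their medians were -0.43, -0.28, -0.31 and -0.21, with Mycl at 0.29.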

How the data were processed

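Signals of 21 Illumina bead arrays (24613 probes) in 8 groups were used, grouped by the labels. The authors deposited non-normalised probe intensity, already background-subtracted, and a detection p-value for each probe. They also deposited processed intensity scaled to a mean of 198.09 on every array, used as an alternative. GenomeStudio is named, without a version, in the submitters' processing notes. Arrays have no read depth, and the number of arrays limits the precision. Per the labels, RNA was isolated with PicoPure and amplified with the Illumina total prep kit.

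Intensity was corrected with normexp (offset 50), quantile-normalised and taken to log2 with limma 3.58.1 in R 4.3.3. The platform table gives 20984 probes 1 symbol, 1 several and 3628 none. The brightest probe stood for each gene. A mean per group was fitted with limma to the 19 samples (11 residual degrees of freedom). Each of 11 comparisons was adjusted over 8527 genes by Benjamini-Hochberg, and an adjusted p below 0.05 was a call. P-values rest on the spread between samples within groups, shared over all 8 groups. The median SD of the groups ran from 0.10 to 0.51, so a p-value does not measure the spread of 1 group alone. A gene undetected on every array of the dimmer group has a bound ("at least") from the lowest detected signal per array. The fit was tested on simulated data drawn as independent samples, with no chip effect and no detection limit, so that check does not cover these.

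Members and lists were chosen with earlier results of these data known. Values in every sample are given for 16 members set by name, where tested, and for members apart by at least 1 after M phase transfer, and up to 8 called members per comparison were named by size of difference. Alternatives changed background, scaling, filter, probe choice, chip, replicates and weights. Members named outside this rule were chosen after their values were seen.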

Additional observations from a re-analysis of the deposited data

Results flagged for a closer look

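In the 4 M phase transfer samples, 3 of 38 tested members had a sample whose gap to its nearest neighbour, as a share of the range, was above Dixon's 95% limit, which chance passes in about 1 in 20 groups. The limit takes the 4 samples as alike, although A and B were on chip 5 and C and D on chip 6. The share over all genes is not given. Nop56 was lowest in M phase transfer D at 6.68, against 8.28 to 8.31 in the other samples (gap share 0.978). Mrto4 was lowest in M phase transfer A at 9.70, against 10.31 to 10.36 (0.918). Ddx18 was lowest in M phase transfer D at 10.14, against 10.58 to 10.63 (0.885).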

How the results depend on the processing

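Members called are given as totals. In 2-cell embryos against mitotic zygotes the 20 called members became 13 with median scaling and 32 with array quality weights, and 11 to 12 without 1 sample. In mitotic against interphase zygotes the weights gave 4. In genomeless embryos against mitotic zygotes the 9 became 5 with median scaling, 0 with chip as a fixed block, 4 with that block on 21 separate arrays, and 6 to 10 without 1 sample. Against drug controls, 30 became 0 with the fixed block and 19 with the weights, both in genomeless and in interphase transfer embryos. In M phase transfer embryos against drug controls, 0 became 1 with no filter on dim probes, 3 on 21 separate arrays, 2 without the 2 dim arrays, 11 with the weights, and 0 to 1 without 1 sample. Against 2-cell embryos, 0 became 1 with the mean of a gene's probes and 13 with the weights. In interphase transfer against genomeless embryos, 0 became 1 on 21 arrays, 2 with the fixed block on 21 arrays, and 0 to 7 without 1 sample. In ES cells against 2-cell embryos, 4 became 1 with neqc and with the deposited processed values, 2 with offset 16, median scaling, no filter or chip as a random block, 7 without the dim arrays or with the weights, and 1 to 7 without 1 sample.

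With chip as a fixed block, Mrto4 in genomeless embryos against mitotic zygotes turned to 1.04, and in interphase transfer embryos against drug controls Nolc1 turned to 0.33 and Nop56 to 0.28. On the averaged samples this block ties chips 5 and 6 to the others only through the averaged drug control, and the version on 21 arrays was added after the data were seen. The block could not be fitted for mitotic against interphase zygotes or for ES cells against 2-cell embryos. Samples of the same letter were not paired (mean correlation 0.02 over 62 pairs), and a replicate block on the letters gave 17 called members in 2-cell embryos against mitotic zygotes and 3 in ES cells against 2-cell embryos, and moved no count of calls by over 1.5 times. Nolc1, which had no call in M phase transfer embryos, turned under the fixed block to 0.60 against drug controls and 1.67 against 2-cell embryos. For 2-cell embryos against mitotic zygotes, median scaling moved the median of all genes to 0.15 and the deposited processed values to -0.2, where 38.9% of called genes were higher against 50.1%, and the median of the members stayed between 1.42 and 2.33. The causes were not tested. Signal near background limits what can be said of the dim arrays.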
